A study of Mus musculus with 15 samples.

Results

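The genes described here carry the sonic hedgehog (SHH) signal from the cell surface to transcription. They are the receptor gene Ptch1, the signal transducer Smo, the decoy receptor Hhip, the co-receptors Boc, Cdon and Gas1, the inhibitor Sufu and the transcription factors Gli1, Gli2 and Gli3. The 10 genes were chosen by name, and each had an array row annotated to it alone, so all 10 were measured among 22180 genes. Sufu had a further row near background (3.92 to 4.42), and of several rows the one with the highest mean stood for the gene. The comparisons ask whether the genes of the SHH pathway keep their level where genes of the WNT pathway rise.

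SHH is secreted by Purkinje cells of the newborn cerebellum and drives the division of granule neuron progenitors, which carry PTCH1, BOC and SMO. Without ligand, PTCH1 keeps SMO inactive, SUFU holds the GLI proteins back, and GLI3 is processed into a repressor. With ligand, SMO is released at the primary cilium, GLI2 becomes the main activator, and Gli1, Ptch1 and Hhip are themselves induced, so their RNA is a common readout of the pathway. Gsk-3 is known to act in both pathways, since it phosphorylates GLI proteins ahead of their processing and beta-catenin, the effector of WNT signalling, ahead of its degradation.

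RNA came from whole cerebella of newborn C57BL/6 mice, dissociated and enriched for granule neuron progenitors on a density gradient, with 5 libraries per label and 1 array per library. The progenitors of the double knockout (DKO) lack both forms of Gsk-3 (alpha and beta). In the Math1-Cre control, Gsk-3 beta alone is deleted by a Cre recombinase under the Math1 (Atoh1) promoter, which is active in granule neuron progenitors, so other cells of the cerebellum keep the gene. In the no-Cre control Gsk-3 is described as intact. The labels give both controls the genotype Gska+- and GskBff, so both carry 1 altered Gsk3a allele, and the label of no-Cre 5 leaves out GskBff. The labels of the double knockout give no alleles. They give the age as postnatal day 1 in one field and day 2 in another. Levels and differences are log2 values of an array, and a level of one gene cannot be set against that of another.

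The row annotated to Gsk3a, shared with the transcript 9130221H12Rik, went against the label in 4 libraries. It read 9.47, 8.22, 9.37, 7.89 and 8.27 in the libraries labelled DKO 1 to 5, 8.25, 8.03, 9.48, 9.50 and 9.51 in those labelled Math1-Cre 1 to 5, and 9.42 to 9.59 in the no-Cre libraries. DKO 1 and DKO 3 thus lay with the controls, and Math1-Cre 1 and 2 lay with the other DKO libraries. By label, the row was lower in DKO than in no-Cre by 0.86 (exact permutation p = 0.0238, two-sided); the differences of -0.31 from Math1-Cre (p = 0.468 by the same exact test) and of -0.55 between the controls (exact p = 0.167) did not pass. Gsk3b ran from 10.59 to 10.98 with no split by label, but a row over the whole transcript need not cover the deleted part. Each comparison was therefore fitted over all 15 libraries and over the 11 that remain without DKO 1, DKO 3, Math1-Cre 1 and Math1-Cre 2. The members are also described in the 5 libraries whose Gsk3a row lay below 9.0 (DKO 2, 4 and 5, Math1-Cre 1 and 2) beside the other 10. That split uses a measured row, so it is given without a test, and no library was moved to another group. The 11-library fit also chose its libraries by that row. The DKO libraries it kept all have a low row, and the controls it kept all have a high one. Its p-values and calls, for every list below, are conditional on that choice and are not independent evidence. The number of arrays limits the precision, and arrays labelled DKO tended to have a narrower spread of values, with interquartile ranges of 4.06 to 4.24, against 4.31 to 4.36 for Math1-Cre and 4.00 to 4.40 for no-Cre. Of 11 measured markers of granule neuron progenitors, 1 had a mean below the highest array median of olfactory and vomeronasal receptor genes, which stand for background (medians of 3.50 to 4.11).

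None of the 10 SHH genes differed between labels past the threshold, a limma adjusted p under 0.05 over all genes, in any of the comparisons. In DKO against no-Cre, 0.0721% of all genes passed over 15 libraries and 1.08% over 11. In DKO against Math1-Cre the shares were 0.55% and 0.541%, and in Math1-Cre against no-Cre 0% in both. The calls over all genes in DKO against no-Cre over 15 libraries were 0.018% higher and 0.0541% lower. At an unadjusted p under 0.05, 1 of 10 members (Gli3) lay under it in DKO against no-Cre over 15 libraries, beside 17.4% of all genes, and 2 of 10 (Gli1 and Gli3) over 11, beside 12.7%. In DKO against Math1-Cre the members' counts were 0 of 10 over 15 libraries, beside 23% of all genes, and 1 of 10 (Gli3) over 11, beside 15.9%. In Math1-Cre against no-Cre 0 of 10 lay under it in both, beside 3.23% and 2.2%. The label groups overlapped for all 10 members, while 2.58% of all genes had DKO and no-Cre ranges that did not overlap, 6.96% DKO and Math1-Cre ranges and 0.55% Math1-Cre and no-Cre ranges. At shares this low, overlap in all 10 says little about them. The members ran from 5.56 to 10.26 over the 15 libraries, above the receptor gene medians throughout. A lower level in a mixed tissue can mean fewer cells of a type or less RNA per cell, and the arrays cannot tell these apart.

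**Figure D1:**
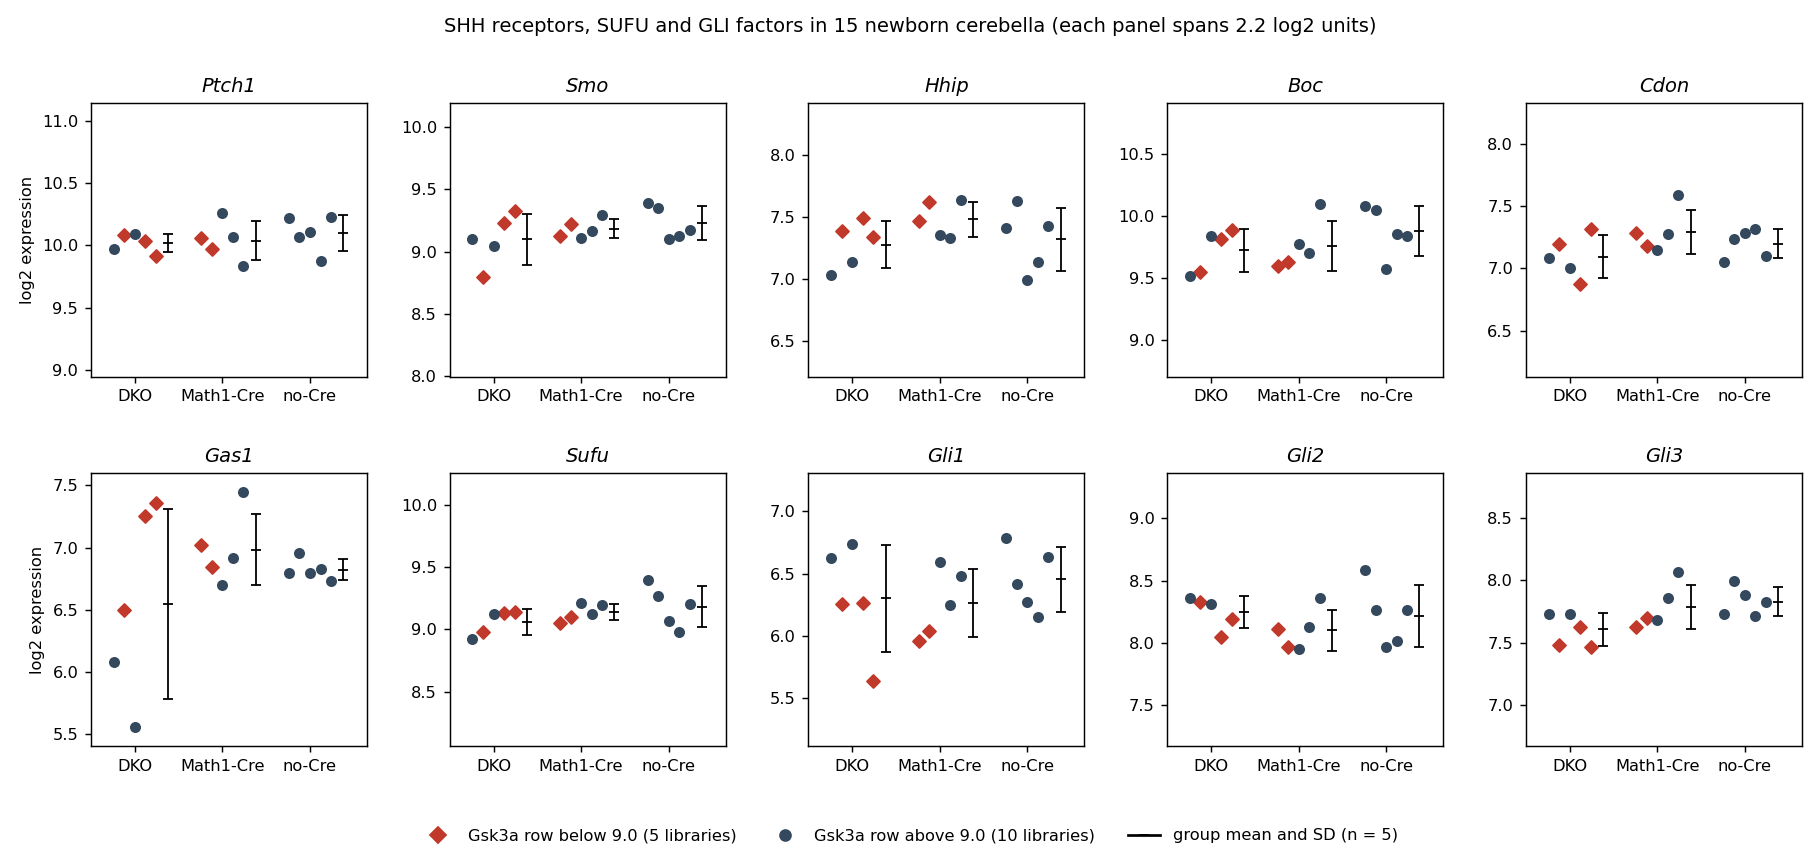
Log2 level of each of the 10 SHH pathway genes in every library, with DKO at the left, then Math1-Cre and no-Cre, and the mean and SD of each label group beside its points. Red diamonds mark the 5 libraries with a Gsk3a row below 9.0; the label groups overlap in every panel, and Gas1 has the widest spread.

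Ptch1 encodes the receptor that binds SHH, and is itself induced by the signal. It read 9.97, 10.09, 10.09, 10.03 and 9.91 in DKO 1 to 5, 10.06, 9.98, 10.26, 10.07 and 9.83 in Math1-Cre 1 to 5, and 10.22, 10.07, 10.10, 9.88 and 10.23 in no-Cre 1 to 5. Both the highest and the lowest library were Math1-Cre libraries, and the DKO libraries lay between them. The DKO minus no-Cre difference was -0.08 ± 0.09 (SE), with a 95% interval of -0.26 to 0.10 and a limma adjusted p = 0.645. The interval leaves room for a level up to 1.20-fold lower or 1.07-fold higher in DKO. Against Math1-Cre the difference was -0.02 ± 0.09 (interval -0.20 to 0.16, limma adjusted p = 0.909). In the 11-library fit DKO minus no-Cre was -0.09 ± 0.11 (interval -0.33 to 0.16, limma adjusted p = 0.777). That interval reaches 1.26-fold lower or 1.11-fold higher. DKO minus Math1-Cre was then -0.04 ± 0.13 (interval -0.32 to 0.23, adjusted p = 0.884). With a range of 0.43 over the 15 libraries, Ptch1 was the least variable of the members, at the 18.1st percentile of all genes.

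Smo, the transmembrane protein that PTCH1 holds inactive, read 9.10, 8.80, 9.04, 9.23 and 9.32 in DKO 1 to 5, 9.12, 9.23, 9.11, 9.16 and 9.29 in Math1-Cre 1 to 5, and 9.39, 9.35, 9.10, 9.13 and 9.18 in no-Cre 1 to 5. DKO 2 was the lowest library, and the other libraries lay between 9.04 and 9.39 whatever their label. Against no-Cre, DKO differed by -0.13 ± 0.09 (interval -0.33 to 0.07, limma adjusted p = 0.485), and DKO minus Math1-Cre was -0.09 ± 0.09 (interval -0.28 to 0.11, adjusted p = 0.602). With 11 libraries, DKO minus no-Cre was -0.11 ± 0.12 (interval -0.38 to 0.16, limma adjusted p = 0.745). DKO minus Math1-Cre was then -0.07 ± 0.14 (interval -0.37 to 0.23, adjusted p = 0.813).

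Hhip binds the ligand without passing the signal on and is, like Ptch1, a target of the pathway. It read 7.03, 7.39, 7.14, 7.49 and 7.34 in DKO 1 to 5, 7.47, 7.62, 7.35, 7.33 and 7.63 in Math1-Cre 1 to 5, and 7.41, 7.63, 7.00, 7.14 and 7.43 in no-Cre 1 to 5. The lowest values were those of no-Cre 3 and DKO 1, so low libraries were found under both labels. Set against no-Cre, DKO differed by -0.04 ± 0.12 (interval -0.30 to 0.21, limma adjusted p = 0.878), and DKO minus Math1-Cre was -0.20 ± 0.12 (interval -0.46 to 0.05, adjusted p = 0.314). Over the 11 libraries the sign against no-Cre turned, to 0.08 ± 0.14 (limma adjusted p = 0.829), and DKO minus Math1-Cre was -0.03 ± 0.15 (adjusted p = 0.929).

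BOC, CDON and GAS1 bind SHH together with PTCH1 and strengthen the response. Boc read 9.52, 9.55, 9.84, 9.81 and 9.89 in DKO 1 to 5, 9.59, 9.63, 9.77, 9.70 and 10.09 in Math1-Cre 1 to 5, and 10.07, 10.04, 9.58, 9.86 and 9.84 in no-Cre 1 to 5. The 2 lowest libraries were labelled DKO, but the other 3 DKO libraries lay inside the range of both controls. The DKO minus no-Cre difference was -0.16 ± 0.12 (interval -0.40 to 0.09, limma adjusted p = 0.496), and DKO minus Math1-Cre was -0.04 ± 0.12 (interval -0.28 to 0.21, adjusted p = 0.866). In the 11-library fit they were -0.13 ± 0.13 (interval -0.42 to 0.16) and -0.11 ± 0.15 (interval -0.43 to 0.22). The limma adjusted p of these were 0.730 and 0.734.

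Cdon read 7.08, 7.19, 7.01, 6.87 and 7.32 in DKO 1 to 5, 7.28, 7.17, 7.15, 7.27 and 7.59 in Math1-Cre 1 to 5, and 7.05, 7.24, 7.28, 7.32 and 7.10 in no-Cre 1 to 5. DKO 4 was the lowest and Math1-Cre 5 the highest library. Against no-Cre, DKO differed by -0.10 ± 0.10 (interval -0.31 to 0.11, limma adjusted p = 0.604). DKO minus Math1-Cre was -0.20 ± 0.10 (interval -0.41 to 0.01, adjusted p = 0.239), the lowest adjusted p of a member in that comparison over 15 libraries. With 11 libraries, DKO minus no-Cre was -0.07 ± 0.13 (interval -0.35 to 0.20, limma adjusted p = 0.847). DKO minus Math1-Cre was then -0.21 ± 0.14 (interval -0.52 to 0.10, adjusted p = 0.471).

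Gas1, which anchors to the membrane and is also expressed outside the progenitors, was the member that varied most. It read 6.08, 6.50, 5.56, 7.25 and 7.36 in DKO 1 to 5, 7.02, 6.84, 6.70, 6.92 and 7.44 in Math1-Cre 1 to 5, and 6.80, 6.96, 6.80, 6.83 and 6.74 in no-Cre 1 to 5. The DKO libraries lay on both sides of the narrow no-Cre range, with DKO 1, 2 and 3 below it and DKO 4 and 5 above it. The SD was 0.77 in DKO, 0.28 in Math1-Cre and 0.08 in no-Cre (n = 5 each), and the range of 1.88 over 15 libraries lay at the 98.8th percentile of all genes. Set against no-Cre, DKO differed by -0.27 ± 0.27 (interval -0.84 to 0.29, limma adjusted p = 0.610). DKO minus Math1-Cre was -0.44 ± 0.27 (interval -1.0 to 0.13, adjusted p = 0.331). Without DKO 1, DKO 3 and Math1-Cre 1 and 2, DKO minus no-Cre was 0.21 ± 0.20 and DKO minus Math1-Cre was 0.01 ± 0.22 (limma adjusted p = 0.690 and 0.981), so both signs turned with the libraries kept.

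Some lists of markers of other cell types had their extremes in the same libraries as Gas1. DKO 3, the lowest library for Gas1, also had the lowest mean of 7 measured choroid plexus and ependyma markers (7.39), of 12 meningeal fibroblast and pericyte markers (6.89) and of 9 endothelial markers (7.44). Math1-Cre 5, the highest library for Gas1, had the highest mean of each list, at 8.65, 8.00 and 8.28. The choroid plexus and ependyma mean ran from 7.39 to 8.47 in DKO, 7.82 to 8.65 in Math1-Cre and 8.11 to 8.57 in no-Cre. The meningeal and pericyte mean ran from 6.89 to 7.71 in DKO, 7.12 to 8.00 in Math1-Cre and 7.16 to 7.68 in no-Cre, and the endothelial mean from 7.44 to 7.92, 7.88 to 8.28 and 7.66 to 8.16 in the same order. None of these markers had a mean below the highest receptor gene median. Microglia markers (8 measured) were likewise lowest in DKO 3 (4.82) and highest in Math1-Cre 5 (5.58). Other lists did not follow Gas1: astrocyte and Bergmann glia markers averaged 8.71 in DKO 3 and 8.64 in Math1-Cre 5, and GABAergic interneuron markers were highest in DKO 1 and 3 (7.89 and 7.87), against 7.54 in Math1-Cre 5. The no-Cre libraries differed in the choroid plexus, meningeal and endothelial means while Gas1 stayed within 6.74 to 6.96 in them. The part of such cells in the Gas1 values was not tested.

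**Figure D2:**
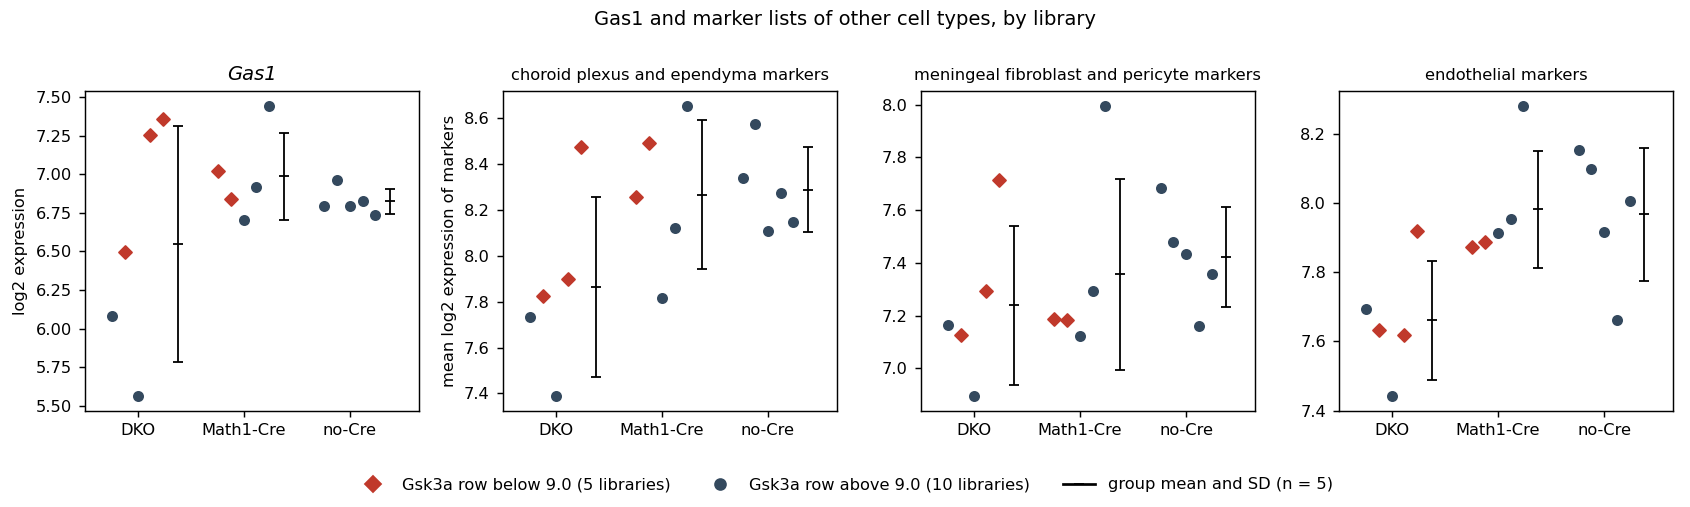
Log2 level of Gas1 and the mean log2 level of marker lists for choroid plexus and ependyma, meningeal fibroblasts and pericytes, and endothelium in every library, with the mean and SD of each label group. DKO 3 is the lowest and Math1-Cre 5 the highest library in all of the panels.

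Sufu, which restrains the GLI proteins in the cytoplasm, read 8.92, 8.98, 9.12, 9.13 and 9.14 in DKO 1 to 5, 9.05, 9.10, 9.21, 9.12 and 9.20 in Math1-Cre 1 to 5, and 9.40, 9.27, 9.07, 8.98 and 9.20 in no-Cre 1 to 5. The no-Cre libraries spanned nearly the whole range of the gene, and no-Cre 4 lay beside DKO 2. The DKO minus no-Cre difference was -0.13 ± 0.08 (interval -0.30 to 0.05, limma adjusted p = 0.433), and DKO minus Math1-Cre was -0.08 ± 0.08 (interval -0.25 to 0.09, adjusted p = 0.564). In the 11-library fit they were -0.10 ± 0.10 (interval -0.32 to 0.12) and -0.10 ± 0.11 (interval -0.34 to 0.15). The limma adjusted p of these were 0.717 and 0.682. The second Sufu row read 3.92 to 4.42 and was not used.

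Gli1 is a target of the pathway and amplifies it, and its RNA is the most direct readout among the members. It read 6.63, 6.25, 6.73, 6.26 and 5.64 in DKO 1 to 5, 5.96, 6.03, 6.59, 6.25 and 6.48 in Math1-Cre 1 to 5, and 6.79, 6.42, 6.27, 6.15 and 6.63 in no-Cre 1 to 5. DKO 5 and Math1-Cre 1 and 2 were the lowest libraries, and DKO 1 and 3 stood among the highest, beside no-Cre 1. By label the means were 6.30 ± 0.43 in DKO, 6.26 ± 0.27 in Math1-Cre and 6.45 ± 0.26 in no-Cre (SD, n = 5 each). Against no-Cre, DKO differed by -0.15 ± 0.19 (interval -0.55 to 0.25, limma adjusted p = 0.702) and DKO minus Math1-Cre was 0.04 ± 0.19 (interval -0.36 to 0.44, adjusted p = 0.919). Over the 11 libraries these differences were -0.40 ± 0.17 (interval -0.78 to -0.02, limma adjusted p = 0.366) and -0.39 ± 0.20 (interval -0.82 to 0.03, adjusted p = 0.347). Neither passed, and over the 22 other settings of the 11-library fit the adjusted p against no-Cre ran from 0.106 to 0.745 while the difference stayed below 0, between -0.51 and -0.19.

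Gli2, the main activator downstream of SMO, read 8.36, 8.33, 8.31, 8.05 and 8.19 in DKO 1 to 5, 8.11, 7.97, 7.95, 8.13 and 8.36 in Math1-Cre 1 to 5, and 8.59, 8.26, 7.96, 8.01 and 8.27 in no-Cre 1 to 5. All 5 DKO libraries lay within the no-Cre range of 7.96 to 8.59. Set against no-Cre, DKO differed by 0.03 ± 0.11 (interval -0.21 to 0.27, limma adjusted p = 0.916), and DKO minus Math1-Cre was 0.15 ± 0.11 (interval -0.10 to 0.39, adjusted p = 0.450). With 11 libraries, DKO minus no-Cre was -0.03 ± 0.14 (interval -0.34 to 0.28, limma adjusted p = 0.950). DKO minus Math1-Cre was then 0.04 ± 0.16 (interval -0.31 to 0.40, adjusted p = 0.908).

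Gli3 is the main source of GLI repressor. It read 7.73, 7.48, 7.73, 7.63 and 7.46 in DKO 1 to 5, 7.63, 7.70, 7.68, 7.86 and 8.07 in Math1-Cre 1 to 5, and 7.73, 7.99, 7.89, 7.71 and 7.83 in no-Cre 1 to 5. DKO 2 and 5 lay below all other libraries, while DKO 1 and 3 reached the lower end of the no-Cre range, where DKO 1, DKO 3 and no-Cre 1 have the same value. Of all genes, 32.0% have such ties. The DKO minus no-Cre difference was -0.22 ± 0.09 (interval -0.42 to -0.03, limma adjusted p = 0.232), and DKO minus Math1-Cre was -0.18 ± 0.09 (interval -0.38 to 0.02, adjusted p = 0.255). Over the 11 libraries the differences were -0.31 ± 0.10 (interval -0.53 to -0.08, limma adjusted p = 0.232) and -0.35 ± 0.12 (interval -0.60 to -0.10, adjusted p = 0.209). The adjusted p against no-Cre ran from 0.0614 to 0.451 over the 22 other settings of that fit, with differences of -0.38 to -0.21. Gli3 was therefore not called, although its sign held in each of them.

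The Math1-Cre and no-Cre controls differed by -0.19 (Gli1) to 0.16 (Gas1) over the members, each with a limma adjusted p = 1.00, and 3.23% of all genes had an unadjusted p under 0.05. Over the 10 members, 8 had their lowest label mean in DKO and 2 in Math1-Cre (Gli1 and Gli2), with none past the test between neighbouring means. The median member difference of DKO minus no-Cre was -0.13 over 15 libraries, with 9 of 10 below 0, beside a median of -0.02 and 54.1% below 0 over all genes. This balance moved with scaling: 7 of 10 were below 0 after quantile normalization and 6 of 10 after centring each array on its median. For DKO minus Math1-Cre, 8 of 10 were below 0 as deposited, and 4 of 10 after either scaling. A p above the threshold does not show that the levels were equal. The widest intervals against no-Cre over 15 libraries were those of Gas1, which allows up to 1.79-fold lower in DKO, and Gli1, up to 1.46-fold lower. In the 11-library fit Gli1 allows up to 1.72-fold lower, and Gas1 up to 1.16-fold lower or 1.56-fold higher.

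**Figure D3:**
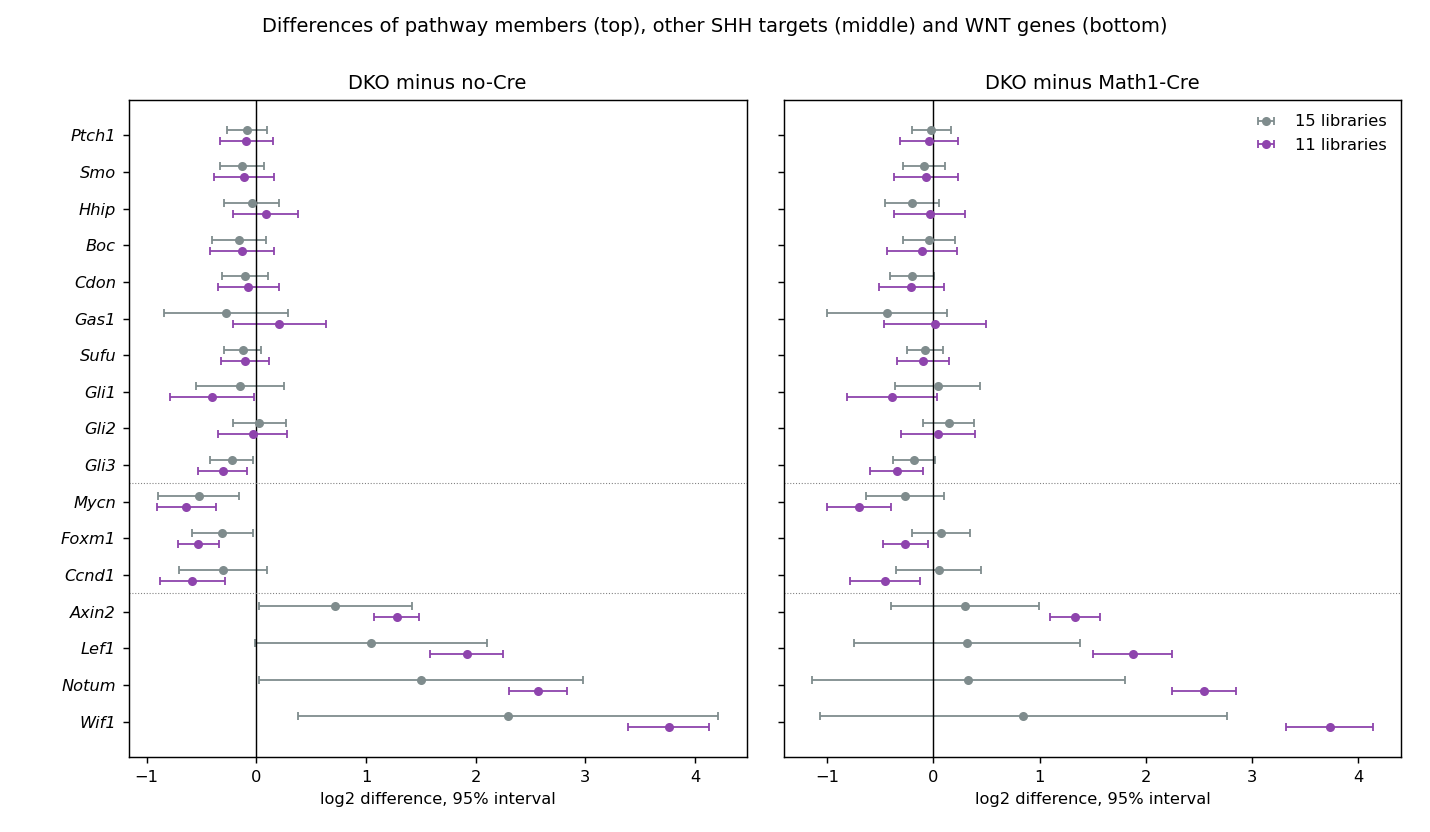
Log2 differences of DKO minus no-Cre (left) and DKO minus Math1-Cre (right) with 95% intervals, over 15 libraries (grey) and over 11 (purple), for the 10 members, then Mycn, Foxm1 and Ccnd1, then 4 WNT genes. Over 11 libraries the WNT genes lie at 1.28 or above, while member differences lie between -0.40 and 0.21.

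In the 5 libraries with a Gsk3a row below 9.0, the WNT genes Axin2 and Lef1 stood clear of the other libraries, while the ranges of the 10 SHH genes overlapped. Axin2, a feedback inhibitor of WNT signalling, ran from 8.14 to 8.52 in these 5 and from 6.86 to 7.14 in the other 10. Lef1, a transcription factor of that pathway, ran from 8.62 to 9.00 and from 6.54 to 7.31 in the same order. Of 17 measured WNT target and feedback genes, 9 were higher without overlap (0.663% of all genes) and Ccnd1 was lower without overlap (0.843% of all genes). That WNT genes split in this way was known when the list was chosen, so the count is not independent evidence. Of the 10 SHH genes, 0 had ranges that did not overlap, beside 1.51% of all genes. Set only against the 5 other libraries that carry Cre by label, the count was again 0, beside 2.79% of all genes. At such shares a count of 0 says little about the members.

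Among the members, Gli1 and Gli3 came closest to separating. Gli1 ran from 5.64 to 6.26 (median 6.03) in the 5 libraries with the low row and from 6.15 to 6.79 (median 6.54) in the other 10. Gli3 ran from 7.46 to 7.70 (median 7.63) and from 7.68 to 8.07 (median 7.78) in the same order. For both genes the 5 libraries lay at the low end. For Gli1, Math1-Cre 4 (6.25) and no-Cre 4 (6.15) of the other 10 lay below the highest of the 5 (DKO 4, 6.26). For Gli3 only Math1-Cre 3 (7.68) of the other 10 lay below the highest of the 5 (Math1-Cre 2, 7.70). The targets Ptch1 and Hhip did not follow Gli1. Ptch1 ran from 9.91 to 10.09 in the 5 libraries and from 9.83 to 10.26 in the other 10, and Hhip from 7.34 to 7.62 and from 7.00 to 7.63. Smo, at 8.80 to 9.32 against 9.04 to 9.39, and Sufu, at 8.98 to 9.14 against 8.92 to 9.40, overlapped over most of their range. The ranges were 7.97 to 8.33 against 7.95 to 8.59 for Gli2, 9.55 to 9.89 against 9.52 to 10.09 for Boc, 6.87 to 7.32 against 7.01 to 7.59 for Cdon and 6.50 to 7.36 against 5.56 to 7.44 for Gas1. Cdon thus had its lowest library, DKO 4, among the 5, and Gas1 its lowest, DKO 3, among the 10.

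**Figure D4:**
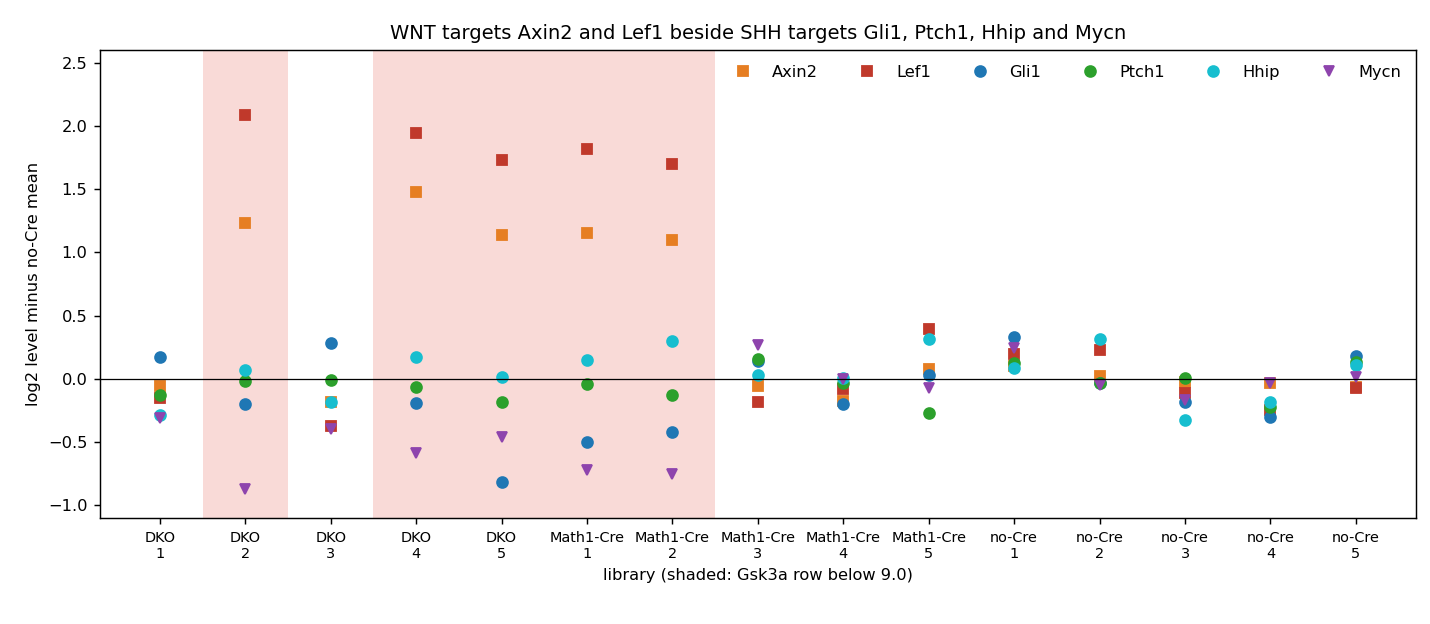
Log2 level minus the no-Cre mean for the WNT targets Axin2 and Lef1 (squares), the SHH targets Gli1, Ptch1 and Hhip (circles) and Mycn (triangles) in each library, with the 5 libraries of low Gsk3a row shaded. Axin2 and Lef1 are high in the shaded libraries, Mycn is lowest there, and Ptch1 and Hhip have no such shift. Gli1 lies toward the low end there (median level 6.03, against 6.54 in the other libraries), with overlap.

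Of 19 further measured SHH target genes, none was called over the 15 libraries, and 2 were lower in DKO than in no-Cre over the 11, where 0.64% of all genes were lower. They were Foxm1, a transcription factor for genes of mitosis, and Mycn, which drives progenitor division. An unadjusted limma p under 0.05 against no-Cre was found for 9 of 19 over 11 libraries and 5 over 15, beside 12.7% and 17.4% of all genes. Against Math1-Cre it was 8 and 1, beside 15.9% and 23%. The list mean was 6.61 to 6.68 in the 5 low-row libraries and 6.66 to 7.03 in the other 10. Of the 19, 3 (Mycn, Ccnd1 and Foxm1) were lower in those 5 without overlap, beside 0.843% of all genes. Mycn read 7.26, 6.69, 7.17, 6.98 and 7.11 in DKO 1 to 5, 6.85, 6.82, 7.83, 7.56 and 7.49 in Math1-Cre 1 to 5, and 7.81, 7.52, 7.39, 7.53 and 7.58 in no-Cre 1 to 5. The 5 libraries with the low row, at 6.69 to 7.11, lay below the other 10, at 7.17 to 7.83, and DKO 1 and 3 were the next lowest. Against no-Cre, DKO differed by -0.52 ± 0.17 over 15 libraries (limma adjusted p = 0.159) and -0.64 ± 0.12 over 11 (adjusted p = 0.0296). DKO minus Math1-Cre over 11 was -0.70 ± 0.14 (limma adjusted p = 0.0489). The call against no-Cre ended after quantile normalization (limma adjusted p = 0.0790), after centring (0.0857), with array spread as a covariate (0.0901), with only the groups compared (0.0592) and without any one of DKO 2, DKO 4, Math1-Cre 4, no-Cre 1, no-Cre 2 or no-Cre 5 (0.0506 to 0.111). The call against Math1-Cre ended after quantile normalization (limma adjusted p = 0.146), after centring (0.138), with the covariate (0.194), with only the groups compared (0.114), with code cg1724 as a block (0.0825) and with the mean of a gene's rows (0.0501). When single libraries were left out, 0 to 2 SHH targets were called in that comparison, so the Mycn call did not hold each time.

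Foxm1 read 7.70, 7.32, 7.93, 7.29 and 7.20 in DKO 1 to 5, 7.17, 7.32, 7.45, 7.48 and 7.67 in Math1-Cre 1 to 5, and 7.85, 7.88, 7.66, 7.86 and 7.73 in no-Cre 1 to 5. The low-row libraries lay at 7.17 to 7.32, below the other 10. Set against no-Cre, DKO differed by -0.31 ± 0.13 over 15 libraries (limma adjusted p = 0.238) and -0.53 ± 0.09 over 11 (adjusted p = 0.0129). It did not pass against Math1-Cre over 11 (-0.26 ± 0.10, limma adjusted p = 0.242). The call against no-Cre ended after quantile normalization (limma adjusted p = 0.0686), after centring (0.0880), and without DKO 4 (0.0657) or DKO 5 (0.0524).

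Ccnd1, a cyclin that both pathways are known to induce, is in the SHH and the WNT list. It read 9.19, 8.38, 9.41, 8.78 and 8.66 in DKO 1 to 5, 8.54, 8.44, 9.02, 8.98 and 9.18 in Math1-Cre 1 to 5, and 9.42, 9.29, 8.93, 8.96 and 9.34 in no-Cre 1 to 5. The low-row libraries were again the lowest. DKO minus no-Cre over 11 libraries was -0.58 ± 0.14 (limma adjusted p = 0.0743), short of the threshold.

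Progenitor markers, which include Mycn, and mitosis genes also tended to be lower in the low-row libraries. The mean of the mitosis genes did not follow Foxm1 throughout. It was also low in DKO 1 (8.19) and DKO 3 (8.13), below the no-Cre range of 8.37 to 8.82. Foxm1, by contrast, had its highest value in DKO 3 (7.93). The mean of 11 progenitor markers was 7.80 to 8.09 in the 5 low-row libraries and 8.23 to 8.67 in the other 10, and 4 of the 11 (Mfap4, Nhlh1, Mycn and Atoh1) were lower in DKO than in no-Cre in the 11-library limma fit, beside 0.64% of all genes. The Atoh1 call ended after quantile normalization (limma adjusted p = 0.109), after centring (0.129) and with only the groups compared (0.115), code cg1724 as a block (0.0633) or the covariate (0.0588), and without single libraries such as DKO 4 (0.0895) or no-Cre 2 (0.129). The mean of 11 mitosis genes was 7.65 to 8.15 and 8.13 to 8.82 in the same order, and 6 of the 11 were lower in that fit. The 4 with the lowest adjusted p were the spindle motors Kif11 (-0.89 ± 0.14, limma adjusted p = 0.0103) and Cenpe (-0.76 ± 0.14, 0.0249), the checkpoint kinase Bub1 (-0.79 ± 0.13, 0.0144) and the topoisomerase Top2a (-0.64 ± 0.12, 0.0263). Without DKO 4 alone none of these 4 passed (0.0633 to 0.146). Of 10 markers of differentiating granule neurons 2 were called in the 11-library fit. Gabra6, a GABA-A receptor subunit, was higher in DKO than in no-Cre by 1.70 ± 0.21 (limma adjusted p = 0.00239), where 0.437% of all genes were higher, and Grin2c, an NMDA receptor subunit, differed by -1.02 ± 0.17 (adjusted p = 0.0123), a call that ended without DKO 4 (0.0633) or DKO 5 (0.0505). Gabra6 read 3.50 to 3.95 in the 10 high-row libraries, and Grin2c 3.49 to 4.08 in the 5 low-row ones. These values are at background (receptor gene medians of 3.50 to 4.11), so the size of both differences is uncertain. No member of these 3 lists was called over the 15 libraries. Against no-Cre, 11 of 11 mitosis genes were lower there, each with an unadjusted limma p under 0.05 (lowest limma adjusted p = 0.0686). An unadjusted p under 0.05 was also found for 5 of 11 progenitor and 2 of 10 differentiation markers, beside 17.4% of all genes. Against Math1-Cre the counts were 3, 2 and 2 in the same order, beside 23%. The median difference of DKO minus no-Cre over the 11 libraries was -0.60 for the progenitor markers, -0.70 for the mitosis genes, -0.23 for the SHH targets and -0.09 for the 10 members, beside -0.02 for all genes. The part of progenitor number or division in the levels of Mycn, Foxm1 and Gli1 was not tested.

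In contrast to the members, 9 of 17 genes of the WNT list were higher in DKO, against no-Cre, over the 11 libraries (0.437% of all genes were higher), and 0 over the 15. Wif1, which binds and blocks secreted WNT proteins, was higher by 3.76 ± 0.17 (limma adjusted p = 1.00e-06), and Notum, which inactivates WNT proteins, by 2.57 ± 0.12 (adjusted p = 1.00e-06). Lef1 was higher by 1.92 ± 0.15 and Axin2 by 1.28 ± 0.10 (limma adjusted p = 6.34e-05 and 3.73e-05). Over the 15 libraries Lef1 differed by 1.05 ± 0.50 and Axin2 by 0.72 ± 0.33 (limma adjusted p = 0.292 and 0.273). The libraries kept were those whose Gsk3a row follows their label, which the WNT genes are known to follow too.

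The other genes of the SHH pathway are given as lists. Of 10 genes for the ligands and their release, 0 were called in either DKO comparison over 15 or 11 libraries, and 4 had means below the highest receptor gene median. Shh itself was at background on its own row, at 3.26 to 3.94, and read 5.77 to 6.68 on a row shared with 9530036O11Rik, so its level could not be assigned. Of these 10 genes, 1 had an unadjusted p under 0.05 in DKO against no-Cre over 15 libraries. Of 22 transduction genes between SMO and the GLI proteins, such as kinases and regulators of GLI turnover, 0 were called (4 unadjusted), with a median DKO minus no-Cre of -0.03 over 15 libraries and -0.02 over 11. Of 12 genes for the primary cilium, on which the signal depends, 0 were called (1 unadjusted), with medians of -0.05 and -0.06. For all genes the shares in that comparison were 17.4% unadjusted and 0.0721% called. No gene of these lists separated the low-row libraries from the rest without overlap, beside 1.51% of all genes, so a count of 0 says little about them.

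Of 4 further receptor genes 1 was called, in DKO against Math1-Cre over 15 libraries, where 0.419% of all genes were lower. Lrp2, a large endocytic receptor that can bind SHH, was picked out after its values were seen. It read 5.61, 5.46, 5.30, 5.63 and 5.62 in DKO 1 to 5, 5.78, 5.86, 6.02, 6.11 and 5.90 in Math1-Cre 1 to 5, and 5.94, 5.97, 5.78, 5.68 and 5.81 in no-Cre 1 to 5. All DKO libraries lay below both controls, DKO 1 and 3 included, so the values split by label and not by the Gsk3a row. Over all genes, 6.96% had DKO and Math1-Cre ranges that did not overlap, and 2.58% DKO and no-Cre ranges. DKO minus Math1-Cre was -0.41 ± 0.09 (limma adjusted p = 0.0496) and DKO minus no-Cre was -0.31 ± 0.09 (adjusted p = 0.118). The call ended after quantile normalization (limma adjusted p = 0.133), after centring (0.0866), with array spread as a covariate (0.459) and over the 11 libraries (0.104), and lay just above the threshold with only the groups compared (0.0560), robust moderation with a trend (0.0566), code cg1724 as a block (0.0549) and without the narrowest arrays (0.0554). With single libraries left out it ran from 0.0192 to 0.129, and passed without DKO 5 (0.0371) or no-Cre 4 (0.0192) only.

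The genes whose pattern over the 15 libraries was most like that of Gli1, among genes with a mean level above 5, were Etv5 (Pearson r = 0.93), Abtb2 (0.90), Dtymk (0.89), Fubp1 (0.88) and Meis1 (0.88). These r describe the same 15 arrays, which share label groups and array spread, and carry no test. Etv5, an ETS transcription factor, had a DKO minus no-Cre difference of -0.26 ± 0.12 over 11 libraries (limma adjusted p = 0.408). None of these 5 genes passed in DKO against either control. The other members were much less like Gli1. Ptch1 (r = 0.51), Gli2 (0.50), Gli3 (0.45), Sufu (0.36) and Boc (0.27) had positive r, and Smo (-0.03), Hhip (-0.14), Cdon (-0.37) and Gas1 (-0.54) negative ones. Single libraries set many of the extremes: Math1-Cre 5 was the highest library for Gli3, Hhip, Boc, Cdon and Gas1 and the lowest for Ptch1, and no-Cre 1 was the highest for Gli1, Gli2, Smo and Sufu.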

How the data were processed

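Each array (Affymetrix Mouse Gene 2.1 ST) has 1 deposited log2 value per row. The submitters' processing notes name RMA, Partek 6.6 and build mm9 for the authors' processing with no settings. Values ran from 2.11 to 13.49 and were used as deposited. The platform annotation pairs 23521 of the 41345 rows with a single symbol. For a gene with several rows the one with the highest mean over all libraries was kept, which left 22180 genes. No coordinates or sequences are printed, because the reference table is of another build (GRCm38.p6).

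Labels gave the groups and replicate numbers. One limma model with a mean per label was fitted to all genes over 15 libraries (12 residual degrees of freedom), and again over 11 (8). P-values were two-sided and corrected over all 22180 genes of each comparison (Benjamini-Hochberg), with a threshold of 0.05. Intervals are 95% intervals of the limma fit. No litter or day is named in the labels, and the p-values therefore rest on the spread among these samples alone, which may be technical. Single values of the Gsk3a row were compared by exact permutation.

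The members, gene lists, the 11-library fit and the other settings were chosen with earlier results of these data known. All 10 members are named, with the Gsk3a row, Gsk3b, Axin2, Lef1 and Shh. Of each other list up to 4 genes called in DKO against no-Cre are named, and for Gli1 the 5 genes with the highest Pearson r. Ccnd1 and Lrp2 are named outside that rule, after their values were seen. The other settings were array weights, centring on the median, quantile normalization, the mean of a gene's rows, leaving out genes under the 30th percentile of mean level, fitting only the groups compared, robust moderation with a trend, the replicate number or the code cg1724 (on replicate 5 of each label) as a block, array spread as a covariate, and each library left out. The setting without the 4 arrays of narrowest spread was chosen after seeing the data. The fits were tested on simulated data. Fits ran in limma 3.58.1 under R 4.3.3, and figures were drawn with matplotlib 3.10.9 under Python 3.11.15.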

Additional observations from a re-analysis of the deposited data

How the results depend on the processing

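No member was called in limma under any setting. Over 1470 alternative values of 60 member differences (10 genes, 3 comparisons, 15 and 11 libraries) the lowest adjusted p was 0.0565 (Gas1, DKO minus Math1-Cre, without the 4 narrowest arrays), and 109 values, in 34 differences, changed sign. The causes were not tested. Centring moved the median DKO minus no-Cre difference of all genes to 0.09, against -0.02 as deposited, and that of DKO minus Math1-Cre to 0.09, against -0.05. Low differences near these shifts have no settled sign, and the spread between 5 arrays a label limits what can be detected.

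In DKO minus no-Cre over 15 libraries, Ptch1 (0.022), Hhip (0.061) and Cdon (5.5e-05) turned after centring, Hhip (0.052) and Cdon (0.0021) after quantile normalization, and Gli1 (0.021), Ptch1 (0.014) and Hhip (0.0033) with array spread as a covariate. Gli2 turned with array weights (-0.00016), and Gli2 (-0.030), Hhip (0.085) and Gas1 (0.21) over the 11 libraries. With single libraries left out, Gli1 ran from -0.26 to 0.016, Gli2 from -0.034 to 0.12 and Hhip from -0.12 to 0.035. Over the 11 libraries, Gli2 (0.068), Ptch1 (0.0085) and Cdon (0.027) turned after centring, Gli2 (0.043) and Cdon (0.029) after quantile normalization, Gli2 (0.078) and Ptch1 (0.034) with the covariate, and Gli2 (0.056), Cdon (0.026) and Gas1 (-0.33) without the narrowest arrays. There, single libraries left out gave Gli2 -0.10 to 0.062, Smo -0.21 to 0.050 and Cdon -0.17 to 0.057.

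In DKO minus Math1-Cre over 15 libraries, Ptch1 (0.058), Smo (0.010), Sufu (0.0095) and Boc (0.041) turned after quantile normalization, and Ptch1 (0.12), Smo (0.053), Sufu (0.057) and Boc (0.10) after centring. Ptch1 (0.10) turned with the covariate, and Gli1 (-0.39) and Gas1 (0.014) over the 11 libraries. Single libraries left out gave Gli1 -0.069 to 0.21, Ptch1 -0.071 to 0.035 and Boc -0.079 to 0.046. In Math1-Cre minus no-Cre, Gli3 turned over the 11 libraries (0.039), and Sufu ran from -0.10 to 0.0094 with single libraries left out.

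In DKO minus Math1-Cre over 11 libraries, 8 of 10 members were below 0 as deposited, 4 after quantile normalization and 3 after centring. Ptch1 (0.043), Smo (0.037), Sufu (0.015) and Hhip (0.11) turned after quantile normalization, and Ptch1 (0.10), Smo (0.070), Sufu (0.047), Hhip (0.11) and Boc (0.035) after centring. Smo (0.035), Hhip (0.042) and Boc (0.0070) turned with weights, Ptch1 (0.12), Sufu (0.011), Hhip (0.058) and Gas1 (-0.11) with the covariate, and Ptch1 (0.032) and Gas1 (-0.52) without the narrowest arrays. Single libraries left out gave Gli2 -0.053 to 0.15, Ptch1 -0.15 to 0.059, Smo -0.18 to 0.089, Hhip -0.088 to 0.065, Boc -0.18 to 0.011 and Gas1 -0.15 to 0.28. In Math1-Cre minus no-Cre over 11, Gli3 turned after quantile normalization (-0.0068), after centring (-0.0061) and with weights (-0.048), and Gli1 with code cg1724 as a block (0.00074). Single libraries left out gave Gli1 -0.086 to 0.084, Gli2 -0.18 to 0.023, Gli3 -0.061 to 0.13, Ptch1 -0.15 to 0.064, Smo -0.090 to 0.0026, Sufu -0.056 to 0.050, Boc -0.14 to 0.056 and Gas1 -0.015 to 0.36.

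Counts over all genes moved far more. For DKO against no-Cre over 15 libraries (16 genes) they were 0 after quantile normalization (3502 unadjusted), 6 after centring, 33 with trend and robust moderation, 2 with only the groups compared, 739 with array weights, 7 with code cg1724 as a block, 0 with the covariate (2832 unadjusted), 804 without the narrowest arrays, 239 over the 11 libraries and 0 to 1546 with single libraries left out. For DKO against Math1-Cre (122 genes) they were 20, 23, 236 and 773 after quantile normalization, centring, moderation and weights, 0 with the covariate (1912 unadjusted), 613 without the narrowest arrays and 0 to 1288 with single libraries left out. Over 11 libraries, DKO against no-Cre (239) gave 131 with only the groups compared, 2173 with weights, 147 with the covariate, 448 without the narrowest arrays and 80 to 1060 with single libraries left out. DKO against Math1-Cre (120) gave 39, 1999, 60 and 191 under the same settings and 44 to 446 with single libraries left out.

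The WNT count of DKO against no-Cre (0 over 15 libraries) was 1 with array weights, 9 over the 11 libraries and 0 to 1 with single libraries left out. The count of other SHH targets (0) was 1 with weights, 1 without the narrowest arrays and 0 to 1 with single libraries left out. Over 11 libraries that count (2) was 0 after quantile normalization or centring, 1 with only the groups compared, 6 with weights, 1 with the covariate and 0 to 6 with single libraries left out. Against Math1-Cre (1) it was 3 with weights, 0 to 2 with single libraries left out, and 0 with the mean of a gene's rows, quantile normalization, centring, only the groups compared, code cg1724 as a block or the covariate.

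The label code cg1724, whose meaning is not explained there, is carried by replicate 5 of each label and by no other library. Whether equal replicate numbers pair the samples was not settled by the values. Of 15 same-numbered pairs, 6 correlated above 0.1 in their deviations from the label means (r -0.30 to 0.30). Only 3 libraries correlated best with their own number, a hint from the data and not the design. The DKO and Math1-Cre means mix libraries of low and high Gsk3a row, and that split also enters these r. With the replicate block, 6 genes were called in DKO against no-Cre and 0 (4892 unadjusted) in DKO against Math1-Cre over 15 libraries, 42 and 25 over 11, and 0 members and 0 other SHH targets in each. Over 11 libraries the block turned Gli2 in DKO minus Math1-Cre (-0.082) and Gli1 (0.11), Gli2 (0.075), Sufu (0.057) and Boc (0.041) in Math1-Cre minus no-Cre. It ended the calls of Mycn against no-Cre (adjusted p = 0.227 in limma) and Math1-Cre (0.214) and of Foxm1 (0.105), Atoh1 (0.230), Kif11 (0.0640), Cenpe (0.0640), Bub1 (0.113), Top2a (0.119) and Grin2c (0.119) against no-Cre, and over 15 that of Lrp2 against Math1-Cre (0.0983).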
